A study of Mus musculus with 6 samples.

Results

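The 39 genes described here encode the enzymes that build cholesterol and long-chain fatty acids, the SREBP system that controls them, the enzymes that desaturate, elongate and activate fatty acids, and the transporters Abca1 and Abcg1, which move sterol out of the cell. The list was set by gene name and function, with earlier results of these data known, and all 39 were found among the 16135 genes listed in at least 1 library. Their RNA was measured in bone marrow cells of wildtype C57BL/6 mice aged 6 to 8 weeks, sorted as common dendritic cell progenitors, from which dendritic cells arise. Sorting into 3 subsets went by CD115, the receptor protein encoded by Csf1r, and by Ly6C, a surface protein of monocytes and their precursors. Of each subset (CD115-Ly6C-, then CD115+Ly6C+, then CD115+Ly6C-) there were 2 polyA RNA libraries. Whether the 2 libraries of a subset stem from different mice or sorts is not stated in the labels, so the p-values reflect only how far these libraries spread, which may be technical.

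Cells make cholesterol from acetyl-CoA through mevalonate, farnesyl diphosphate, squalene and lanosterol, and farnesyl diphosphate also feeds protein prenylation and ubiquinone. When sterol in the endoplasmic reticulum is low, Scap escorts the SREBP transcription factors to the Golgi, where they are cut and released to act on sterol and fatty acid genes, and the Insig proteins hold Scap back when sterol is plentiful. When oxysterols accumulate, the nuclear receptors called LXR raise Abca1, Abcg1 and Srebf1. Fatty acid synthesis runs from citrate through Acly, Acaca and Fasn, and dividing cells use both pathways to build membrane.

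Expected counts summed to 17961541 to 19450329 per library, and 13307 to 14127 genes were listed in each. The genes of the sorted proteins followed the labels. Ly6c2 had 41.8 and 61.8 CPM in CD115-Ly6C-, 1439 and 1400.5 CPM in CD115+Ly6C+, and 121 and 188 CPM in CD115+Ly6C-, and Csf1r had 213 and 259 CPM in CD115-Ly6C-, 553 and 531 CPM in CD115+Ly6C+, and 414 and 513 CPM in CD115+Ly6C-. Csf1r RNA was thus lowest but present in the cells sorted as CD115-. CPM here are counts relative to the library total, scaled by TMM so that libraries can be compared. Flt3, the cytokine receptor that defines these progenitors, was present in all 6 libraries but at different levels, with 1139 and 1063 CPM in CD115-Ly6C-, 373 and 342 CPM in CD115+Ly6C+, and 666 and 657 CPM in CD115+Ly6C-. Kit, a receptor of early progenitors, had 189 and 169 CPM in CD115-Ly6C-, 58.8 and 48.9 CPM in CD115+Ly6C+, and 108 and 94.9 CPM in CD115+Ly6C-. Il7r, a receptor of lymphoid progenitors, had 79.9 and 69.6 CPM in CD115-Ly6C-, 1.51 and 2.16 CPM in CD115+Ly6C+, and 14.4 and 13.4 CPM in CD115+Ly6C-. Other markers moved with the subsets too. The summed level of 6 monocyte genes, Ly6c2 left out, reached 319.9 and 334 CPM in CD115-Ly6C-, 2021 and 2187 CPM in CD115+Ly6C+, and 469 and 686 CPM in CD115+Ly6C-. That of 10 late neutrophil granule genes was 311 and 149 CPM in CD115-Ly6C-, 4196 and 3916 CPM in CD115+Ly6C+, and 229 and 908 CPM in CD115+Ly6C-, whose 2 libraries thus stood apart. That of 9 B and T lymphoid genes was 3113 and 2715 CPM in CD115-Ly6C-, 40.8 and 51.4 CPM in CD115+Ly6C+, and 309 and 417 CPM in CD115+Ly6C-, most of it from Dntt, while Cd3e, Cd3g and Pax5 stayed at or below 0.279 CPM. That of 6 erythroid and megakaryocyte genes stayed between 3.98 and 16.2 CPM. That of 8 proliferation genes was 2695 and 3001 CPM in CD115-Ly6C-, 4379 and 4438 CPM in CD115+Ly6C+, and 4529 and 4198 CPM in CD115+Ly6C-. In CD115-Ly6C- against CD115+Ly6C+, 6 of the 8 were lower and 1 higher (edgeR adjusted p under 0.05), where 19.2% of all genes tested were lower and 20.1% higher. Against CD115+Ly6C-, 6 were lower and 0 higher, where 6.78% of all genes were lower and 8.43% higher. The part of these cell mixtures and of proliferation in the results below was not tested. In bulk samples such as these, fewer cells of a type and less RNA per cell cannot be told apart.

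The members together held 0.342% and 0.348% of the counts of the CD115-Ly6C- libraries, 0.272% and 0.289% of those of CD115+Ly6C+, and 0.307% and 0.317% of those of CD115+Ly6C-. After TMM scaling they summed to 3136 and 3281 CPM in CD115-Ly6C-, 2857 and 3112.5 CPM in CD115+Ly6C+, and 3128 and 3185 CPM in CD115+Ly6C-. On that scale CD115-Ly6C- and CD115+Ly6C- overlapped. Of the 39, 38 passed the filter on low counts. Scd1, a stearoyl-CoA desaturase, did not: it had 8 counts in 1 library of CD115-Ly6C-, 5 in 1 library of CD115+Ly6C+ and none in the remaining 4 libraries. In FPKM, the deposited level per transcript length, the 6-library means ran over the members from 0.025 for Scd1 to 261 for Fdps, which makes farnesyl diphosphate. Next came Acsl5 at 128, Elovl1 at 71.4, Acly at 71.1, Ebp at 70.1 and Acat2 at 67.6 FPKM. The 4 genes after Acsl5 could not be ordered, since their subset means crossed. At the lower end stood Acaca at 2.82, Lss at 2.18, Hsd17b7 at 2.05 and Abca1 at 1.80 FPKM.

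The members did not move as 1 block. Against CD115+Ly6C+, CD115-Ly6C- had 15 members higher and 3 lower of the 38 tested (edgeR adjusted p under 0.05), where 20.1% of all 12127 genes tested were higher and 19.2% lower (39.3% in either direction). The higher ones lay mostly in the SREBP system, in fatty acid synthesis, desaturation and elongation, and in sterol efflux, while the enzymes of sterol synthesis included 2 higher and 2 lower. Against CD115+Ly6C-, CD115-Ly6C- had 6 members higher and 2 lower, where 15.2% of all genes were called, 8.43% higher and 6.78% lower. CD115+Ly6C+ had 0 members higher and 3 lower when set against CD115+Ly6C-, where 9.6% of all genes were called, 5.26% higher and 4.34% lower. At an unadjusted p under 0.05 edgeR had 3 higher and 5 lower there, and DESeq2 called 1 higher and 4 lower. The F test over the 3 subsets called 15 of the 38 members and 35.0% of all genes. The 3 comparisons share libraries, so they are not independent of each other. All 8 members called in CD115-Ly6C- against CD115+Ly6C- were also called in the same direction against CD115+Ly6C+: Srebf2, Scap, Fasn, Scd2, Fads2 and Abca1 higher, Fdps and Ebp lower.

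With library totals in place of TMM, all genes shifted up by a median of 0.19 on the log2 scale in CD115-Ly6C- against CD115+Ly6C+, and by 0.12 against CD115+Ly6C-. The split of members then became 18 higher and 2 lower against CD115+Ly6C+, and 10 higher and 1 lower against CD115+Ly6C-, while that of all genes became 3504 higher and 1518 lower against CD115+Ly6C+, and 1383 higher and 479 lower against CD115+Ly6C-. For CD115+Ly6C+ against CD115+Ly6C- it became 0 and 4 members, and 485 higher and 777 lower of all genes. The median log2 fold change over the tested members was 0.16 against CD115+Ly6C+, beside 0.031 over all genes, and 0.15 against CD115+Ly6C-, beside 0.017 over all genes. For CD115+Ly6C+ against CD115+Ly6C- it was -0.091, beside -0.0090 over all genes.

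**Figure D1:**
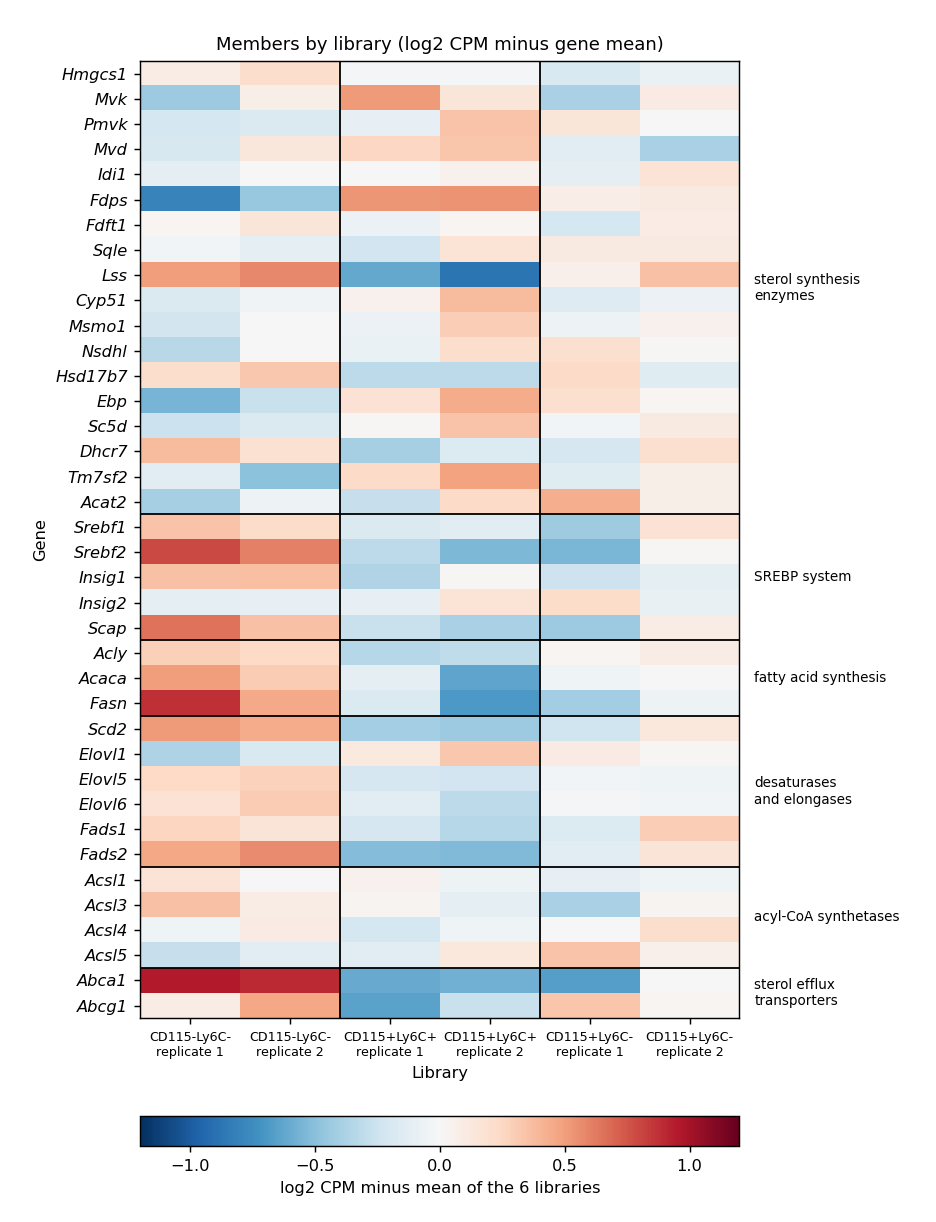
Level of each tested member (rows, grouped by role) in each of the 6 libraries (columns), as log2 CPM minus that gene's mean over the libraries, with red above and blue below the mean. Fatty acid, SREBP and efflux genes are mostly red in both CD115-Ly6C- libraries, while the sterol enzyme Fdps is blue there and red in CD115+Ly6C+.

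Of the 18 enzymes of sterol synthesis, 14 did not pass the threshold between CD115-Ly6C- and CD115+Ly6C+, so that 22.2% were called beside 39.3% of all genes. The median log2 fold change of the 18 was -0.23. With the transcript length trend described below removed, 1 was higher and 4 were lower, where 12.8% of all genes were higher and 20.6% lower. Fdps had 159 and 203 CPM in CD115-Ly6C-, against 401 and 401 CPM in CD115+Ly6C+ and 292 and 299 CPM in CD115+Ly6C-. The 3 subsets did not overlap, with CD115-Ly6C- lowest and CD115+Ly6C+ highest. Set against CD115+Ly6C+, Fdps was 2.22-fold lower in CD115-Ly6C- (-1.15 ± 0.13 SE on the log2 scale, edgeR adjusted p = 0.00033) and against CD115+Ly6C- it was 1.64-fold lower (-0.71 ± 0.13 SE, adjusted p = 0.0101). Of the 50-base stretches in annotated Fdps transcripts, 26.2% also occur in other annotated transcripts, mostly of Gm43738 and processed pseudogenes, so the estimated division of its reads is uncertain. Ebp, the sterol isomerase late in the pathway, shares none. It had 74.2 and 91.1 CPM in CD115-Ly6C-, against 123 and 149 CPM in CD115+Ly6C+ and 125 and 111 CPM in CD115+Ly6C-. Both CD115-Ly6C- libraries lay below the other 4, by a log2 fold change of -0.72 ± 0.14 SE against CD115+Ly6C+ (adjusted p = 0.00519) and of -0.51 ± 0.14 SE against CD115+Ly6C- (adjusted p = 0.0456).

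Lss, which closes the ring of lanosterol, ran the other way. It had 17.5 and 18.3 CPM in CD115-Ly6C-, against 8.03 and 6.71 CPM in CD115+Ly6C+ and 12.9 and 15.8 CPM in CD115+Ly6C-. CD115+Ly6C+ was lowest, without overlap: CD115-Ly6C- was 2.43-fold above it (1.28 ± 0.21 SE on the log2 scale, edgeR adjusted p = 0.00189), and CD115+Ly6C+ was 1.94-fold below CD115+Ly6C- (-0.96 ± 0.21 SE, adjusted p = 0.0274). Once the length trend was removed, Lss had 0.86 against CD115+Ly6C+ (edgeR adjusted p = 0.00998) and Fdps -0.94 (adjusted p = 0.000801). Dhcr7, a reductase of the final step of cholesterol synthesis, had 66.9 and 58.3 CPM in CD115-Ly6C-, against 39.1 and 46.0 CPM in CD115+Ly6C+ and 44.8 and 58.8 CPM in CD115+Ly6C-. It rose in CD115-Ly6C- against CD115+Ly6C+ by 0.56 ± 0.17 SE on the log2 scale (adjusted p = 0.0283), while CD115-Ly6C- and CD115+Ly6C- overlapped.

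None of the other 14 sterol enzymes passed the threshold in CD115-Ly6C- against CD115+Ly6C+ by edgeR. Hmgcs1, which makes HMG-CoA, had 65.4 and 71.2 CPM in CD115-Ly6C-, 60.5 and 60.7 CPM in CD115+Ly6C+, and 54.2 and 58.2 CPM in CD115+Ly6C-, and passed the threshold in no comparison (lowest adjusted p = 0.137). Idi1, the isomerase just before Fdps, had log2 fold changes of -0.09 ± 0.12 SE against each CD115+ subset. Sqle, which oxidises squalene just before Lss, had -0.06 ± 0.14 SE in CD115-Ly6C- against CD115+Ly6C+, and Fdft1, the squalene synthase that draws directly on the product of Fdps, had 0.11 ± 0.15 SE, with 26.5% of its 50-base stretches shared, mostly with Ctsb on the opposite strand. Values were also negative in that comparison for Mvk (-0.50 ± 0.27 SE), Pmvk (-0.33 ± 0.18 SE) and Mvd (-0.31 ± 0.19 SE), which carry mevalonate on to isoprenoids, and for Cyp51 (-0.33 ± 0.13 SE), Msmo1 (-0.23 ± 0.15 SE), Nsdhl (-0.23 ± 0.16 SE), Sc5d (-0.40 ± 0.15 SE) and Tm7sf2 (-0.66 ± 0.27 SE), which work on lanosterol and its products. Hsd17b7, the ketoreductase of the same stretch, stood at 0.58 ± 0.23 SE. None of these 8 nor Hsd17b7 passed the threshold, and the lowest adjusted p among them was 0.0634. Acat2, the cytosolic thiolase of the opening step, had -0.22 ± 0.20 SE; of its 50-base stretches 39.1% are shared with protein-coding transcripts of Acat3, which reached at most 0.212 CPM, and 11.2% lie in Tcp1 on the opposite strand, which had 471 to 603 CPM. The 18 enzymes summed to 964 and 1094 CPM in CD115-Ly6C-, 1269 and 1437 CPM in CD115+Ly6C+, and 1224 and 1237 CPM in CD115+Ly6C-, lower in CD115-Ly6C- without overlap. The separation from CD115+Ly6C+ rested on Fdps. The other 17 summed to 805 and 892 CPM in CD115-Ly6C-, 868 and 1035 CPM in CD115+Ly6C+, and 932 and 938 CPM in CD115+Ly6C-. CD115-Ly6C- and CD115+Ly6C+ then overlapped, while CD115-Ly6C- stayed below CD115+Ly6C-.

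Of the 5 genes of the SREBP system, 3 rose in CD115-Ly6C- against CD115+Ly6C+, where 20.1% of all genes were higher. Of these 3, 2 also rose against CD115+Ly6C-, where 8.43% of all genes were higher. Removal of the length trend left 1 of the 5, Srebf2, higher against CD115+Ly6C+, where 12.8% of all genes were then higher. Srebf2, which encodes the SREBP that acts mainly on sterol genes, had 191 and 168 CPM in CD115-Ly6C-, against 89.0 and 75.8 CPM in CD115+Ly6C+ and 75.2 and 111 CPM in CD115+Ly6C-. Both CD115-Ly6C- libraries lay above the other 4, while the CD115+ subsets overlapped. In CD115-Ly6C- it exceeded the CD115+Ly6C+ level 2.17-fold (1.12 ± 0.18 SE on the log2 scale, edgeR adjusted p = 0.00189) and the CD115+Ly6C- level 1.92-fold (0.94 ± 0.18 SE, adjusted p = 0.0124). Scap, its escort, had 66.5 and 54.2 CPM in CD115-Ly6C-, against 35.2 and 32.5 CPM in CD115+Ly6C+ and 31.3 and 45.1 CPM in CD115+Ly6C-. CD115-Ly6C- was again above the other 4 libraries, by 0.83 ± 0.19 SE on the log2 scale against CD115+Ly6C+ (adjusted p = 0.0095) and by 0.66 ± 0.19 SE against CD115+Ly6C-, where the adjusted p of 0.0499 lay at the threshold. Of its 50-base stretches 9.96% lie in a transcript of the opposite strand.

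Insig1, the retention protein that is itself an SREBP target, had 47.7 and 47.9 CPM in CD115-Ly6C-, against 29.2 and 37.8 CPM in CD115+Ly6C+ and 31.5 and 34.6 CPM in CD115+Ly6C-. It rose against CD115+Ly6C+ (0.51 ± 0.16 SE on the log2 scale, edgeR adjusted p = 0.0302), and its 0.53 ± 0.16 SE against CD115+Ly6C- just missed the threshold (adjusted p = 0.0526). Insig2, its relative, had 29.8 and 30.2 CPM in CD115-Ly6C-, 30.2 and 36.2 CPM in CD115+Ly6C+, and 37.6 and 30.4 CPM in CD115+Ly6C-, with no call. Srebf1, whose product acts mainly on fatty acid genes, had 50.8 and 46.9 CPM in CD115-Ly6C-, 35.6 and 36.7 CPM in CD115+Ly6C+, and 29.9 and 45.3 CPM in CD115+Ly6C-. Its CD115-Ly6C- libraries were the highest, but the log2 fold changes of 0.43 ± 0.19 SE (adjusted p = 0.103) and 0.38 ± 0.19 SE (adjusted p = 0.208) did not pass.

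All 3 genes of fatty acid synthesis rose in CD115-Ly6C- against CD115+Ly6C+, where 20.1% of all genes were higher. Only Fasn of the 3 did so with the length trend removed, where 12.8% of all genes were higher. Fasn, the multienzyme that builds palmitate, had 96.0 and 71.7 CPM in CD115-Ly6C-, against 46.2 and 32.4 CPM in CD115+Ly6C+ and 39.1 and 50.1 CPM in CD115+Ly6C-. CD115-Ly6C- lay above the other 4 libraries, 2.13-fold against CD115+Ly6C+ (1.09 ± 0.21 SE on the log2 scale, edgeR adjusted p = 0.00468) and 1.88-fold against CD115+Ly6C- (0.91 ± 0.21 SE, adjusted p = 0.0257). Acly, which splits citrate into acetyl-CoA, had 360.0 and 349 CPM in CD115-Ly6C-, against 233 and 239.6 CPM in CD115+Ly6C+ and 301 and 313 CPM in CD115+Ly6C-. The 3 subsets did not overlap, and CD115+Ly6C+ was lowest, 0.58 ± 0.10 SE on the log2 scale below CD115-Ly6C- (adjusted p = 0.00218) and, as a log2 fold change, -0.38 ± 0.10 SE against CD115+Ly6C- (adjusted p = 0.047). Acaca, the carboxylase that makes malonyl-CoA, had 33.5 and 29.2 CPM in CD115-Ly6C-, against 21.9 and 15.3 CPM in CD115+Ly6C+ and 22.9 and 23.6 CPM in CD115+Ly6C-. It passed against CD115+Ly6C+ (0.76 ± 0.19 SE, adjusted p = 0.0152) and not against CD115+Ly6C- (0.43 ± 0.19 SE, adjusted p = 0.16). Of its 50-base stretches 30.4% are shared, mostly with the processed pseudogene Gm5182.

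Every one of the 6 tested desaturases and elongases was called between CD115-Ly6C- and CD115+Ly6C+, 5 higher and 1 lower, where 39.3% of all genes were called. With the length trend removed, Scd2 and Fads2 were higher and Elovl1 lower, 2 and 1 of the 6, where 12.8% of all genes were higher and 20.6% lower. Fads2, the delta-6 desaturase of polyunsaturated fatty acids, had 71.6 and 76.8 CPM in CD115-Ly6C-, against 36.3 and 36.1 CPM in CD115+Ly6C+ and 47.2 and 57.9 CPM in CD115+Ly6C-. The 3 subsets formed separate steps, and all 3 comparisons passed: CD115-Ly6C- lay above CD115+Ly6C+ by 1.03 ± 0.14 SE on the log2 scale (edgeR adjusted p = 0.000718) and above CD115+Ly6C- by 0.50 ± 0.14 SE (adjusted p = 0.042), and CD115+Ly6C+ had a log2 fold change of -0.54 ± 0.14 SE against CD115+Ly6C- (adjusted p = 0.0454). Scd2, which makes monounsaturated fatty acids, was far above Scd1, the other stearoyl-CoA desaturase among the members. Scd2 had 199 and 190.2 CPM in CD115-Ly6C-, against 105 and 103 CPM in CD115+Ly6C+ and 118 and 152 CPM in CD115+Ly6C-. It stood 1.87-fold above CD115+Ly6C+ (adjusted p = 0.00113) and 1.44-fold above CD115+Ly6C- (adjusted p = 0.0311) in CD115-Ly6C-, again without overlap.

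The elongases split. Elovl5, which lengthens polyunsaturated chains, had 165 and 169 CPM in CD115-Ly6C-, against 122 and 119 CPM in CD115+Ly6C+ and 137 and 135 CPM in CD115+Ly6C-, and Elovl6, which lengthens palmitate, had 48.8 and 53.2 CPM in CD115-Ly6C-, against 39.6 and 34.7 CPM in CD115+Ly6C+ and 42.9 and 42.3 CPM in CD115+Ly6C-. Both were highest in CD115-Ly6C- and lowest in CD115+Ly6C+ without overlap, and rose between those by 0.47 ± 0.10 SE (edgeR adjusted p = 0.00592) and 0.46 ± 0.13 SE (adjusted p = 0.0243) on the log2 scale. Elovl1, which makes very long saturated chains, went the other way, with 90.6 and 104 CPM in CD115-Ly6C-, against 127 and 146 CPM in CD115+Ly6C+ and 126 and 119 CPM in CD115+Ly6C-. Its log2 fold change was -0.49 ± 0.12 SE against CD115+Ly6C+ (adjusted p = 0.012) and -0.33 ± 0.12 SE against CD115+Ly6C-, which did not pass (adjusted p = 0.0958). Fads1, the delta-5 desaturase, had 70.2 and 65.0 CPM in CD115-Ly6C-, against 50.8 and 46.2 CPM in CD115+Ly6C+ and 52.2 and 72.0 CPM in CD115+Ly6C-. Its rise against CD115+Ly6C+ was near the threshold (0.48 ± 0.16 SE, adjusted p = 0.0468).

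None of the 4 acyl-CoA synthetases, which activate fatty acids for use in lipids or for oxidation, was called in any comparison by edgeR. At an unadjusted p under 0.05, and also by DESeq2, 1 of them, Acsl5, was lower in CD115-Ly6C- than in CD115+Ly6C-. Acsl5, the most abundant of them, had 313 and 346 CPM in CD115-Ly6C-, 348 and 413 CPM in CD115+Ly6C+, and 481 and 396 CPM in CD115+Ly6C-. Its values were lowest in CD115-Ly6C-, but barely clear of those in CD115+Ly6C+. The log2 fold changes were -0.21 ± 0.14 SE (edgeR adjusted p = 0.257) and -0.41 ± 0.14 SE (adjusted p = 0.0737) against the CD115+Ly6C+ and CD115+Ly6C- subsets. Acsl1, Acsl3 and Acsl4 had means between 21.7 and 86.2 CPM, and their log2 fold changes over the 3 comparisons lay between -0.24 and 0.39.

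Both efflux transporters rose in CD115-Ly6C- against CD115+Ly6C+, where 20.1% of all genes were higher. Abca1 alone kept its call with the length trend removed, where 12.8% of all genes were higher. Abca1, which loads cholesterol onto lipid-poor apolipoprotein, had 30.3 and 29.1 CPM in CD115-Ly6C-, against 10.3 and 10.5 CPM in CD115+Ly6C+ and 9.91 and 15.7 CPM in CD115+Ly6C-. Its CD115-Ly6C- libraries were nearly level with each other and far above the other 4, and its 2.86-fold difference from CD115+Ly6C+ was the largest of any member (1.52 ± 0.23 SE on the log2 scale, edgeR adjusted p = 0.00127). Against CD115+Ly6C- it was 2.33-fold higher (1.22 ± 0.22 SE, adjusted p = 0.0107). Abcg1, which passes cholesterol to lipoprotein particles, had 161 and 210.0 CPM in CD115-Ly6C-, against 97.4 and 126 CPM in CD115+Ly6C+ and 191 and 155 CPM in CD115+Ly6C-. It was lowest in CD115+Ly6C+, below CD115-Ly6C- by 0.73 ± 0.18 SE on the log2 scale (adjusted p = 0.0122), while CD115-Ly6C- and CD115+Ly6C- overlapped (0.10 ± 0.18 SE, adjusted p = 0.724).

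**Figure D2:**
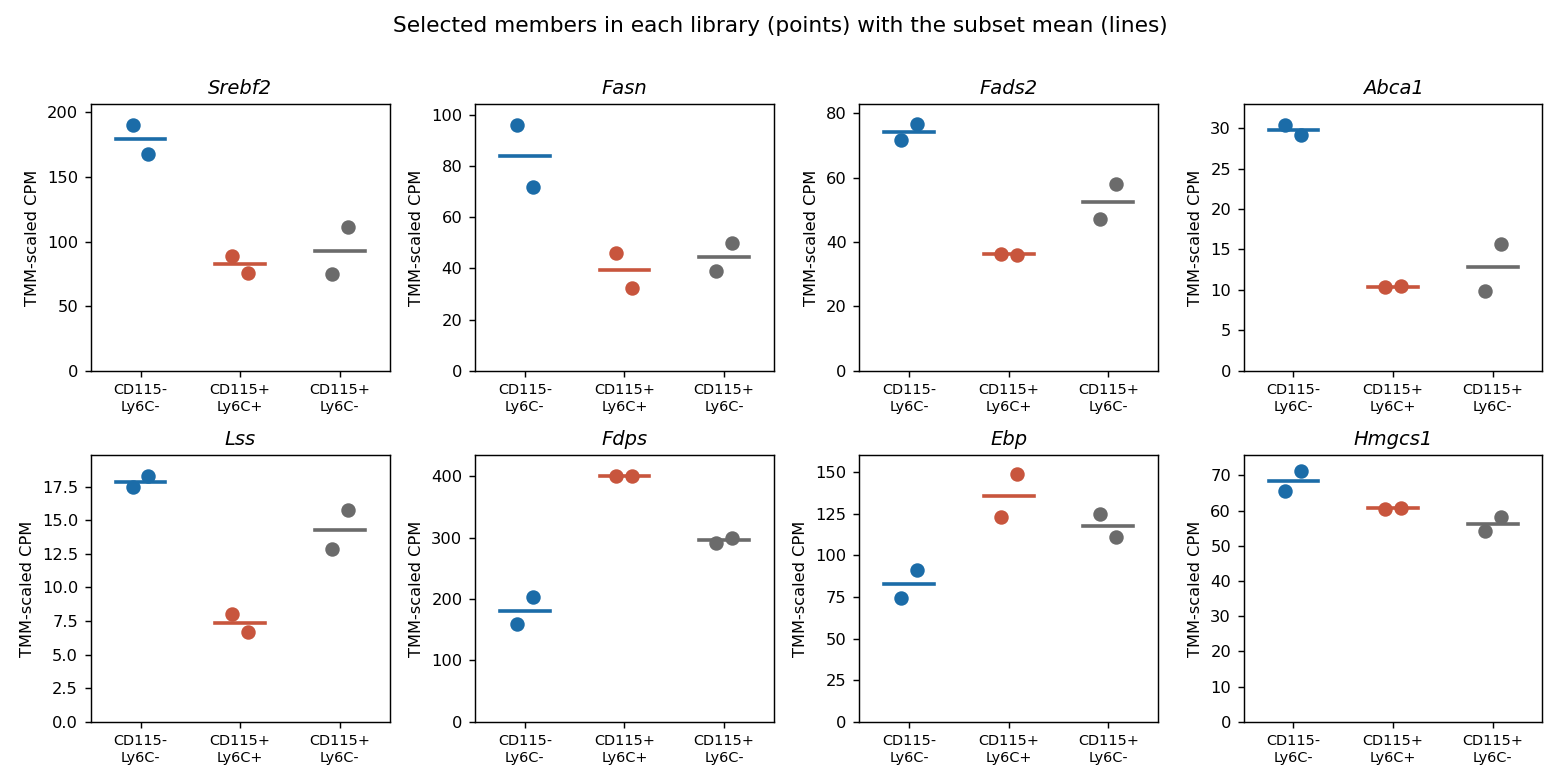
TMM-scaled CPM of 8 members in each library (points, 2 per subset) with the subset mean (lines), each panel on its own axis from 0. Srebf2, Fasn, Fads2, Abca1 and Lss are highest in CD115-Ly6C-, Fdps and Ebp are lowest there, and Hmgcs1 stays between 54.2 and 71.2 CPM.

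**Figure D3:**
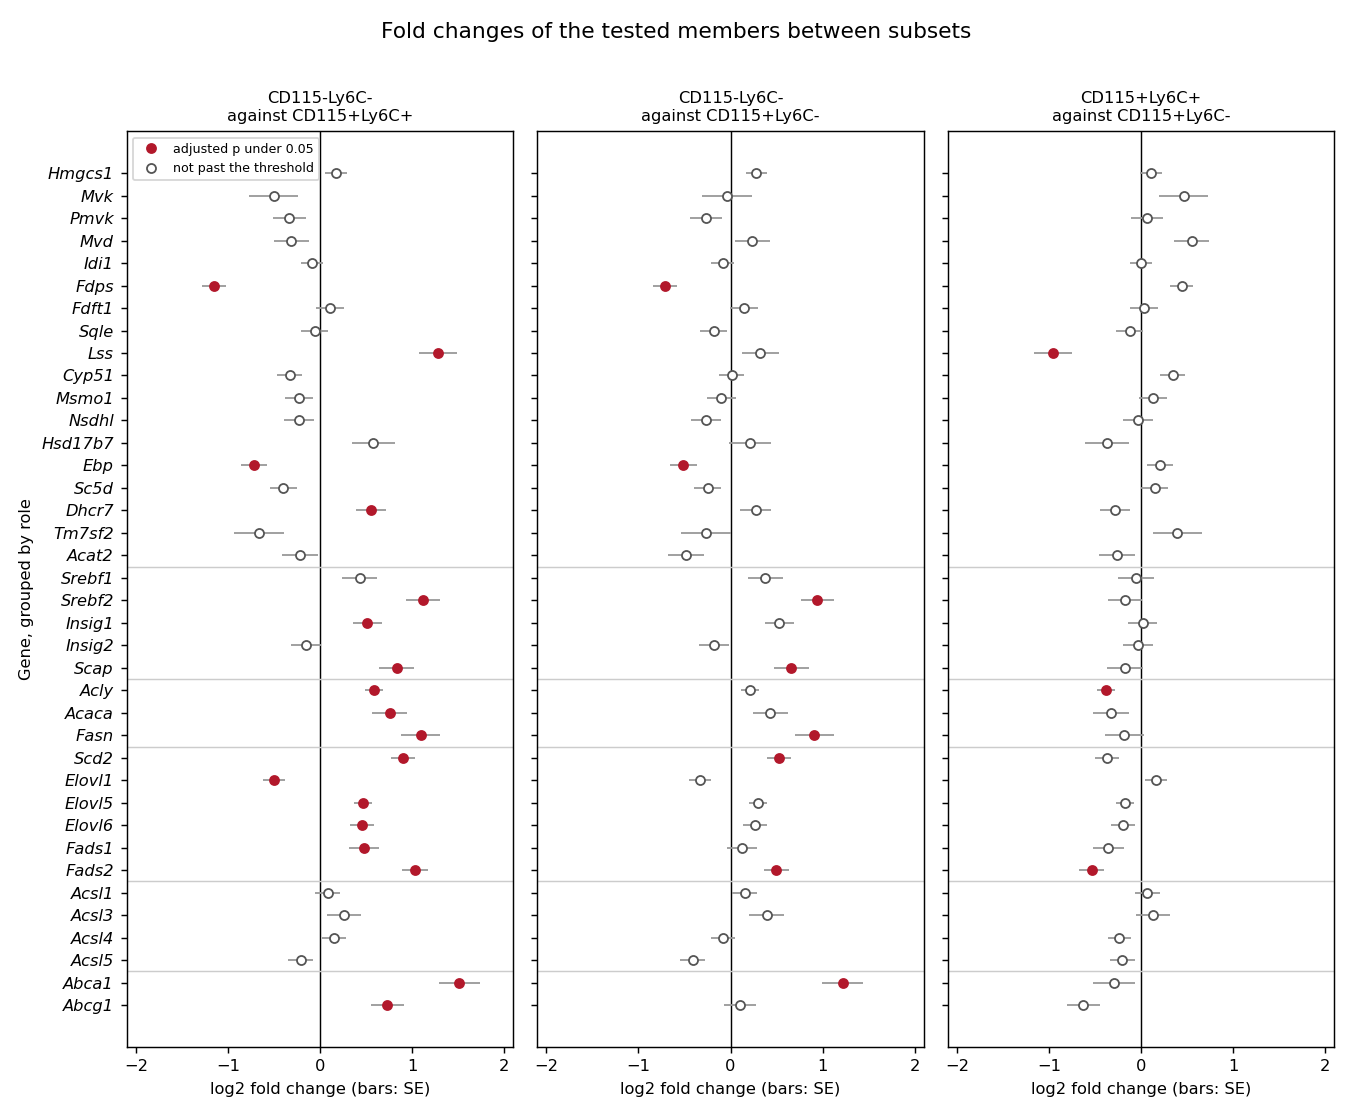
The log2 fold change of each tested member (rows, grouped by role) in the 3 comparisons (panels), with bars for the SE and filled points where the edgeR adjusted p was under 0.05. The panel of CD115-Ly6C- against CD115+Ly6C+ holds 18 filled points, 15 of them to the right of 0, and that of CD115+Ly6C+ against CD115+Ly6C- holds 3, all to the left.

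Proximal promoters were read for the members from RefSeq windows of 300 bases, 250 before and 50 after an annotated start (GRCm38.p6). Windows were found for 32 of the 39 members, 42 windows in all, among 32851 windows of 27025 genes. Those of Srebf2, Fasn and Abca1 are printed because they belong to a regulator, the synthase and the transporter on which the results turn. Beside them stand 1 of the 3 windows of Srebf1, the other SREBP gene, and that of Hmgcs1, a textbook SREBP target. Neither Srebf1 nor Hmgcs1 passed in any comparison. All windows are printed 5′ to 3′ on the gene's strand. Capitals mark 3 motifs searched on both strands: the sterol regulatory element-like TCACNCCAC, its shorter core ATCACCC, and TGACC followed by any 3 bases and AGTAACC, the form of the LXR response element known from the Srebf1 promoter. The last 2 were added after these promoters had been read.
Srebf2 (chr15:82147019-82147318, plus strand): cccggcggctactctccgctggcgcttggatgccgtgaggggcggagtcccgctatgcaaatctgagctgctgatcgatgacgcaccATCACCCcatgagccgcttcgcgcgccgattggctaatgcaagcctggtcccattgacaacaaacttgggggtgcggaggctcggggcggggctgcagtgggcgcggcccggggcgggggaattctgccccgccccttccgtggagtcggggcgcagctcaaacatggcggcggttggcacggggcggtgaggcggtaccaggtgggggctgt
Fasn (chr11:120824498-120824797, minus strand): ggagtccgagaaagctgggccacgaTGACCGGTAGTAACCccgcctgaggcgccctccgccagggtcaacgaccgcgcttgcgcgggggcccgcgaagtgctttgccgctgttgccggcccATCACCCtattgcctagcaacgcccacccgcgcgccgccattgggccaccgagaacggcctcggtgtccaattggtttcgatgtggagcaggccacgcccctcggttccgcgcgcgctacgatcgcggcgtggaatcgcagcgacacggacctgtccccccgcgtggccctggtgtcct
Abca1 (chr4:53159846-53160145, minus strand): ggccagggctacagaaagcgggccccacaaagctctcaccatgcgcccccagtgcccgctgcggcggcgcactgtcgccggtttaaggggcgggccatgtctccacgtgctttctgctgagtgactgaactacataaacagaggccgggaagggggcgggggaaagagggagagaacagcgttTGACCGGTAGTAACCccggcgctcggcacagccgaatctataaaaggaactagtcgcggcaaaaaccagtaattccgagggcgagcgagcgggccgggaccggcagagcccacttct
Srebf1 (chr11:60210422-60210721, minus strand): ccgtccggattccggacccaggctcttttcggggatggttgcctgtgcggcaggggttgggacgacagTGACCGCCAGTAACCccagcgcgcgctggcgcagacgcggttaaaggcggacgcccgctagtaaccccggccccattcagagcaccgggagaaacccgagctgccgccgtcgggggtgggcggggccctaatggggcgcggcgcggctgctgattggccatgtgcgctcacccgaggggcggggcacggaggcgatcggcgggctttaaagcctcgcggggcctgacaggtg
Hmgcs1 (chr13:119690101-119690400, plus strand): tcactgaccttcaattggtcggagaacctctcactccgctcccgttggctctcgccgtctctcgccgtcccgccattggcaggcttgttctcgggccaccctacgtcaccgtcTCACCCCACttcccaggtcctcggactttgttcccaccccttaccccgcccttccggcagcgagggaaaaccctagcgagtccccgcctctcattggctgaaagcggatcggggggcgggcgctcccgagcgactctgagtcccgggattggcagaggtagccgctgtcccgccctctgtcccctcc

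Counting the start site as 1 and the base before it as -1, the LXR element-like motif began at -225 in Fasn, -67 in Abca1 and -112 in Acsl3. In Srebf1 it began at -182 in the printed window and was absent from the rest of its 3 windows. The copies in Fasn and Abca1 had the same letters, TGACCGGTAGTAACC, that in Srebf1 was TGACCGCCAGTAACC and that in Acsl3 was TGACCCATAGTAACC. These 4 were among 6 windows of 5 genes with the motif in all 32851 (0.018% of windows). The motif was chosen after these promoters had been read, so the count is a description only. Their genes did not share a call: Abca1 and Fasn rose in CD115-Ly6C- against both other subsets, and Srebf1 and Acsl3 passed in no comparison. ATCACCC began at -163 in Srebf2, -129 in Fasn, -206 in Nsdhl and -65 in Acsl5, 4 of 42 member windows (9.52%) and 2.69% of all windows. TCACNCCAC began at -137 in Hmgcs1 and at -76 in 1 of the windows of Acsl1, 2 of 42 member windows (4.76%) and 1.24% of all. A stretch could match both sterol motifs, since they share the letters TCACCC, but none did in a member window.

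Commoner motifs were more frequent in member windows than in all windows. All windows cover 27025 genes, beside the 16135 listed in at least 1 library, and windows of expressed genes alone were not counted. CCAAT, the NF-Y-like motif, was in 61.9% of member windows and 37.4% of all. GGGCGG, the GC box, was in 73.8% of member windows and 35.7% of all, and CACGTG, the E-box, in 19.0% and 7.15%. Matches to these letters describe the windows and do not show that a factor binds there.

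Fold changes also moved with transcript length. Over all 12127 genes, Spearman's rho between length and the log2 fold change was 0.33 in CD115-Ly6C- against CD115+Ly6C+, 0.18 against CD115+Ly6C-, and -0.33 in CD115+Ly6C+ against CD115+Ly6C-; genes are not independent replicates. Over the 38 members it was 0.75 in CD115-Ly6C- against CD115+Ly6C+, 0.63 against CD115+Ly6C-, and -0.61 in CD115+Ly6C+ against CD115+Ly6C-. In CD115-Ly6C- against CD115+Ly6C+ the shortest 25% of all genes had a median log2 fold change of -0.34 and the longest 25% one of 0.31. The median length was 3320 nucleotides for the members and 2810 for all genes. Of the members called there, 11 of the 15 higher were longer than the median of all genes, and all 3 lower (Fdps, Ebp and Elovl1) were shorter.

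With the length trend of all genes removed, the members' split became 6 higher and 6 lower in CD115-Ly6C- against CD115+Ly6C+, where 12.8% of all genes were higher and 20.6% lower. It became 4 and 4 against CD115+Ly6C-, where 6.46% were higher and 13.7% lower, and 0 and 1 in CD115+Ly6C+ against CD115+Ly6C-, where 2.98% were higher and 2.68% lower. The split of all genes also moved toward lower, from 2435 higher and 2333 lower to 1551 and 2501 against CD115+Ly6C+. Against CD115+Ly6C- it moved from 1022 and 822 to 784 and 1658. Short members moved down there too, Fdps from -0.71 to -0.72 and Ebp from -0.51 to -0.61. How many calls were lost or gained through length alone was not tested. Of the 18 calls, 9 against CD115+Ly6C+ remained: Lss, Srebf2, Fasn, Scd2, Fads2 and Abca1 higher, and Fdps, Ebp and Elovl1 lower. Abca1 kept a log2 fold change of 1.04 (edgeR adjusted p = 0.00983), Srebf2 of 0.76 (adjusted p = 0.00817) and Fasn of 0.64 (adjusted p = 0.0295). Fads2, with a transcript of 1508 nucleotides, came to 1.14 (adjusted p = 0.000311), and Ebp and Elovl1 moved little, to -0.70 and -0.50. Acly came to 0.23 (adjusted p = 0.125), Acaca to 0.31 (adjusted p = 0.186), Elovl6 to 0.04 (adjusted p = 0.817) and Abcg1 to 0.31 (adjusted p = 0.266), and Dhcr7, Insig1, Scap, Elovl5 and Fads1 also lost their calls. Cyp51, Sc5d and Acsl5 were called lower against CD115+Ly6C+ with the trend removed and not in the fit reported above. Against CD115+Ly6C-, Scap (0.42, adjusted p = 0.117) and Scd2 (0.29, adjusted p = 0.141) lost their calls, and Elovl1 (-0.44, adjusted p = 0.0365) and Acsl5 (-0.62, adjusted p = 0.0221) were called lower.

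**Figure D4:**
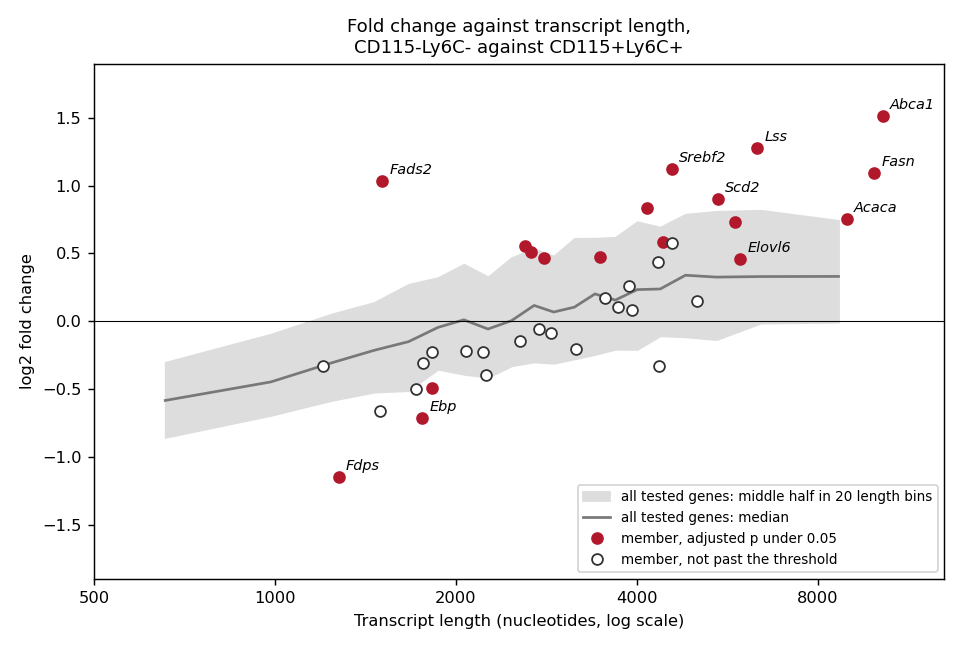
Log2 fold change of each tested member in CD115-Ly6C- against CD115+Ly6C+ (vertical axis) against its transcript length in nucleotides (log scale), over the median (line) and the middle of the distribution (band from the lower to the upper quartile) of all tested genes in 20 length bins. Lss, Srebf2 and Fads2 lie above the band, Abca1 is the longest member and the highest point, and Fdps and Ebp below it, while Elovl6 lies within it.

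Leaving out 1 library bore most on the smaller comparisons. Against CD115+Ly6C+, 8 of the 18 calls held under all 12 alternatives tried: Fdps, Lss, Ebp, Srebf2, Fasn, Scd2, Fads2 and Abca1. Without CD115-Ly6C- replicate 1, 9 members were called higher and 2 lower there. In CD115-Ly6C- against CD115+Ly6C-, none of the 8 calls held under all alternatives: without CD115+Ly6C- replicate 1, the library with fewer granule transcripts, 0 members were called, and without CD115-Ly6C- replicate 1, 1 higher and 0 lower. Abca1 came closest, with an adjusted p of 0.0559 without CD115+Ly6C- replicate 1 as its one loss. The 3 calls between the CD115+ subsets, Lss, Acly and Fads2, were lost without any 1 of those 4 libraries.

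Of 9 genes that process or turn over SREBP or its regulators, 3 rose and 1 fell in CD115-Ly6C- against CD115+Ly6C+, where 20.1% of all genes were higher and 19.2% lower. With the length trend removed, 1 was higher and 3 were lower, where 12.8% of all genes were higher and 20.6% lower. Mylip, the LXR-induced ubiquitin ligase of lipoprotein receptors, had 23.0 and 23.2 CPM in CD115-Ly6C-, against 9.20 and 9.34 CPM in CD115+Ly6C+ and 10.6 and 16.7 CPM in CD115+Ly6C-, a log2 fold change of 1.32 ± 0.23 SE against CD115+Ly6C+ (edgeR adjusted p = 0.0028). Mbtps1, the protease that makes the opening cut in SREBP, also rose (0.51 ± 0.13 SE, edgeR adjusted p = 0.0174). Erlin1, an endoplasmic reticulum protein that restrains SREBP, fell (-0.74 ± 0.11 SE, adjusted p = 0.00113) and was the 1 gene of the list called against CD115+Ly6C- (-0.49 ± 0.11 SE, adjusted p = 0.0214).

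Of 10 genes on the isoprenoid branches that leave the pathway around Fdps, 1 rose and 2 fell in CD115-Ly6C- against CD115+Ly6C+, or 30.0% called beside 39.3% of all genes. Removing the length trend ended the rise, that of Icmt, and gave 4 lower, where 20.6% of all genes were lower. Pdss1, which builds the ubiquinone side chain, had 18.5 and 18.6 CPM in CD115-Ly6C-, against 38.4 and 36.3 CPM in CD115+Ly6C+ and 35.5 and 34.9 CPM in CD115+Ly6C-. It thus lay at about the same distance below both CD115+ subsets (-1.01 ± 0.14 SE, edgeR adjusted p = 0.000728, and -0.92 ± 0.14 SE, adjusted p = 0.00385). Coq2, which attaches that chain, also fell against CD115+Ly6C+ (-1.06 ± 0.30 SE, adjusted p = 0.0237), but its CD115-Ly6C- libraries differed widely, at 38.0 and 17.1 CPM. Icmt, the methyltransferase of prenylated proteins, rose (0.86 ± 0.21 SE, adjusted p = 0.0125). Against CD115+Ly6C-, 2 fell, Pdss1 and Pggt1b, and in CD115+Ly6C+ against CD115+Ly6C-, 1 rose, Coq2.

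Of 11 tested genes of sterol transport, storage and oxysterols, 1 rose and 5 fell in CD115-Ly6C- against CD115+Ly6C+, or 9.09% and 45.5%, beside 20.1% and 19.2% of all genes. Removing the length trend gave 1 higher and 7 lower, where 12.8% of all genes were higher and 20.6% lower. Cyp27a1, which makes 27-hydroxycholesterol, had 3.52 and 5.57 CPM in CD115-Ly6C-, against 25.1 and 24.1 CPM in CD115+Ly6C+ and 11.0 and 12.8 CPM in CD115+Ly6C-, with no overlap between any of the 3 subsets (-2.43 ± 0.25 SE against CD115+Ly6C+, edgeR adjusted p = 0.000213). Soat1, which esterifies cholesterol for storage, had 20.9 and 28.7 CPM in CD115-Ly6C-, against 58.9 and 77.5 CPM in CD115+Ly6C+ and 51.3 and 37.9 CPM in CD115+Ly6C- (-1.46 ± 0.22 SE, adjusted p = 0.00126). Npc2, which carries cholesterol in lysosomes, fell by less (-0.81 ± 0.13 SE, adjusted p = 0.00154). Vldlr, a lipoprotein receptor, was low everywhere but rose, with 5.84 and 4.43 CPM in CD115-Ly6C-, against 0.334 and 0.0599 CPM in CD115+Ly6C+ and 1.42 and 0.637 CPM in CD115+Ly6C- (4.63 ± 0.73 SE, adjusted p = 0.00158). Nr1h2, which encodes LXR beta, had 69.6 and 65.2 CPM in CD115-Ly6C-, 60.4 and 65.9 CPM in CD115+Ly6C+, and 62.4 and 62.2 CPM in CD115+Ly6C-, with no call, and Nr1h3, which encodes LXR alpha, was listed in no library. Against CD115+Ly6C-, Vldlr rose and Cyp27a1 and Soat1 fell, and in CD115+Ly6C+ against CD115+Ly6C-, 1 rose, Cyp27a1.

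Of 12 tested further genes of fatty acid synthesis and elongation, 3 rose and 1 fell in CD115-Ly6C- against CD115+Ly6C+, or 33.3% called beside 39.3% of all genes. Removing the length trend gave 2 higher and 2 lower, where 12.8% of all genes were higher and 20.6% lower. Acss2, which makes acetyl-CoA from acetate, had 13.6 and 11.8 CPM in CD115-Ly6C-, against 5.02 and 7.66 CPM in CD115+Ly6C+ and 8.87 and 6.42 CPM in CD115+Ly6C- (1.01 ± 0.29 SE, edgeR adjusted p = 0.023). Slc25a1, the carrier that exports citrate to Acly, rose against CD115+Ly6C+ (0.50 ± 0.14 SE, adjusted p = 0.0182) and was the 1 gene called against CD115+Ly6C- (0.63 ± 0.14 SE, adjusted p = 0.0194). Hsd17b12, a reductase of the elongation cycle, rose (0.42 ± 0.11 SE, adjusted p = 0.0186), and Hacd2, its dehydratase, fell (-0.66 ± 0.12 SE, adjusted p = 0.00295). In CD115+Ly6C+ against CD115+Ly6C-, 1 fell, Hsd17b12.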

How the data were processed

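The libraries were 6 polyA-selected RNA libraries of mouse bone marrow progenitors, 2 from each of 3 sorted subsets, grouped by the labels. The submitters' processing notes name Bowtie2, RSEM and the mm10 build, with no versions or parameters. The deposited tables hold, per the file headers, RSEM expected counts, which are estimated, and FPKM, which the authors scaled to transcript length and depth. In the deposited expected counts, 12.6% of values above 0 were fractional (tolerance 1e-06). A gene absent from a library's table was taken as 0. No unique molecular identifiers are mentioned, and strandedness is not stated, so reads in sequence shared with a gene on the opposite strand cannot be told apart.

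After rounding, all 6 libraries entered edgeR 4.0.16 (quasi-likelihood F test, R 4.3.3) as 1 model with a coefficient for each subset and TMM scaling. Genes were kept by filterByExpr (minimum count 10, minimum total count 15), which left 12127. Benjamini-Hochberg adjustment ran over all of them, with a threshold of 0.05. The common dispersion was 0.0231, a coefficient of variation of 15.2%, with 3 residual degrees of freedom. SEs were derived from log2 fold changes and their F statistics. The 2 libraries of a subset differed by more than counting noise (chi-square per degree of freedom 19.6 to 22.3), so they were not merged as repeat deposits of a library, which does not show that they are separate samples. Alternatives were DESeq2 size factors, library totals, no filter, DESeq2 1.42.0, a replicate block, removal of a loess length trend (span 0.5), and leaving out each library. The scripts were tested on simulated data. Shared sequence was counted as 50-base stretches of GENCODE M21 transcripts.

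The members, the lists of other genes and the tests were chosen with earlier results of these data known. All members may be named; of the other lists, up to 4 genes with the smallest adjusted p per comparison. Nr1h2 and Nr1h3 were named outside this rule, after their values were seen. The values of 1 gene counted among those that process or turn over SREBP are not reported here.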

Additional observations from a re-analysis of the deposited data

How the results depend on the processing

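Whether the replicate numbers pair the libraries could not be settled with 2 libraries per subset. Deviations of same-numbered libraries correlated at -0.004, -0.01 and 0.152 between the 3 subset pairs. With the number as a block, 14 members were higher and 3 lower in CD115-Ly6C- against CD115+Ly6C+, 5 and 1 in CD115-Ly6C- against CD115+Ly6C-, and 0 and 1 in CD115+Ly6C+ against CD115+Ly6C-. Of the alternatives tried on single members, called or not, 1253 left the result as it was, 83 lost a call, 32 gained one and 0 turned its direction. Only the 18, 8 and 3 calls of the 3 comparisons, each under 12 alternatives, could be lost.

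In CD115-Ly6C- against CD115+Ly6C+, removing the length trend gave 6 members higher and 6 lower, 1551 of all genes higher, and a members' median of -0.093 in place of 0.16. Library totals gave a median of 0.35 and 1518 of all genes lower. Leaving out 1 library gave 9 to 16 members higher, 2 to 5 lower, and 1483 to 2369 of all genes higher and 1486 to 2263 lower.

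In CD115-Ly6C- against CD115+Ly6C-, library totals gave 10 members higher and 1 lower, a median of 0.27 and 479 of all genes lower, no filter gave 4 members lower, and removing the length trend gave 4 lower, a median of -0.078 and 1658 of all genes lower. Leaving out 1 library gave 0 to 5 members higher, 0 to 2 lower, and 291 to 996 of all genes higher and 165 to 755 lower.

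In CD115+Ly6C+ against CD115+Ly6C-, no filter and DESeq2 gave 1 member higher and 986 and 1024 of all genes higher, and no filter 824 lower. Removing the length trend gave 1 member lower and 361 of all genes higher and 325 lower, and library totals a median of -0.16. Leaving out 1 library gave 0 to 1 members higher, 0 to 2 lower, 105 to 648 of all genes higher and 115 to 491 lower, and a median between -0.12 and 0.033, positive without CD115+Ly6C- replicate 2. The F test over the 3 subsets called 8 to 14 members and 2350 to 3890 of all genes with 1 library left out. The cause of these changes was not tested. Scd1 was the 1 member too low in counts to be tested.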

Other observations

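Genes of glycerolipid synthesis and lipid droplets were called in both directions in CD115-Ly6C- against CD115+Ly6C+, 5 higher and 3 lower of 13 tested, or 61.5% called beside 39.3% of all genes. With the length trend removed, 2 were higher and 3 lower, where 12.8% of all genes were higher and 20.6% lower. Lpin1, a phosphatidate phosphatase, had 31.4 and 37.5 CPM in CD115-Ly6C-, against 12.3 and 19.0 CPM in CD115+Ly6C+ and 18.9 and 22.0 CPM in CD115+Ly6C- (log2 fold change 1.14 ± 0.22 SE against CD115+Ly6C+, edgeR adjusted p = 0.00457). Gpam, which starts glycerolipid synthesis, had 23.3 and 21.0 CPM in CD115-Ly6C-, against 11.5 and 12.9 CPM in CD115+Ly6C+ and 23.7 and 21.6 CPM in CD115+Ly6C-, so that CD115+Ly6C+ alone was low (0.86 ± 0.17 SE, adjusted p = 0.00452). Plin2, the coat protein of lipid droplets, had 51.2 and 62.5 CPM in CD115-Ly6C-, against 109.5 and 137 CPM in CD115+Ly6C+ and 74.7 and 78.0 CPM in CD115+Ly6C- (-1.12 ± 0.15 SE, adjusted p = 0.000702). Dgat1, an enzyme that makes triglyceride, fell as well (-0.84 ± 0.16 SE, adjusted p = 0.00426). Against CD115+Ly6C-, 3 of the 13 rose (Agpat2, Agpat3 and Pnpla2), and in CD115+Ly6C+ against CD115+Ly6C- 2 rose (Dgat1 and Plin2) and 1 fell (Gpam).

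Of 19 genes of fatty acid oxidation, 0 rose and 7 fell in CD115-Ly6C- against CD115+Ly6C+ by edgeR, where 20.1% of all genes were higher and 19.2% lower. At an unadjusted p under 0.05 edgeR had 1 higher and 8 lower, and DESeq2 called 0 higher and 7 lower. Acaa2, the thiolase of the mitochondrial cycle, had 96.9 and 107 CPM in CD115-Ly6C-, against 174 and 179 CPM in CD115+Ly6C+ and 146 and 143 CPM in CD115+Ly6C-, with no overlap (-0.80 ± 0.10 SE, edgeR adjusted p = 0.000612). Etfb and Etfa, the subunits of the electron carrier, fell by a log2 fold change of -0.84 ± 0.12 SE (adjusted p = 0.000821) and of -0.65 ± 0.13 SE (adjusted p = 0.00591). Echs1, the hydratase, also fell (-0.46 ± 0.11 SE, adjusted p = 0.0124). Against CD115+Ly6C-, 3 fell (Acaa2, Etfa and Etfb), and in CD115+Ly6C+ against CD115+Ly6C- 1 rose (Echs1). Cpt1a, the gate of fatty acid entry into mitochondria, had 57.3 and 48.0 CPM in CD115-Ly6C-, 51.2 and 42.9 CPM in CD115+Ly6C+, and 36.8 and 43.6 CPM in CD115+Ly6C-, with no call; it was named after its values were seen. Acaa2, Etfa, Etfb and Echs1 have transcripts of 920 to 1500 nucleotides and all genes of that length tended to be lower in CD115-Ly6C-. With the length trend removed, 0 of the 19 rose and 7 fell against CD115+Ly6C+, where 12.8% of all genes were higher and 20.6% lower.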
